A study of Mus musculus with 8 samples.

Results

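Ly6 genes encode small cysteine-rich proteins that are mostly held at the cell surface by a lipid anchor, and several of them are used as antibody targets to sort blood and stromal cells. The 7 genes described here, Ly6a, Ly6c1, Ly6c2, Ly6e, Ly6d, Ly6g and Ly6k, were chosen by name, and 7 of 7 were found by symbol among the 49315 genes counted. Ly6a encodes Sca-1, the antigen used in mice to enrich haematopoietic stem cells and, together with PDGFR-alpha, mesenchymal stromal cells. Ly6c1 and Ly6c2 encode the Ly-6C antigens, known from monocytes, endothelial cells and T cells, and Ly6g encodes a surface protein of mature neutrophils. Ly6d is known from lymphoid progenitors committed to the B lineage and from keratinocytes, Ly6e is an interferon-induced gene that restricts virus entry, and Ly6k is mainly known from testis.

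The cells came from bone marrow of wild type C57BL/6J mice aged 6 weeks according to the sample labels, and the Methods name the strain C57BL/6JJcl. RNA-seq was available for 1 library of each of 7 sorted stromal populations, named clusters 1 to 7, and for a further one of input bone marrow cells, so no value has a replicate and no difference between populations was tested. In the sort plots of the study, as read by eye, cells negative for CD31, CD45 and Ter119 were gated as CD24- Sca-1+ CD39+ for cluster 1, Ly-6C- CD39- CD24- for cluster 2, Ly-6C+ CD39/54- CD24+ for cluster 3, Ly-6C- CD54+ CD24- for cluster 4, CD54+ CD121b- CD24/Ly-6C- for cluster 5, CD24+ Sca-1- CD39- for cluster 6 and CD54- Sca-1+ CD24/Ly-6C- for cluster 7. The Methods also list Sca-1, PDGFR-alpha (CD140a) and CD24 antibodies for enriching the lineage-negative cells, and whether each population passed an earlier Sca-1 gate cannot be told from these plots. The input is labelled only as input bone marrow cells, and how many mice were pooled per library is not given in the sources used here. The labels describe the same extraction from crushed marrow for sorted and input libraries. Sca-1 and Ly-6C were thus gates of some of these sorts, and the levels of Ly6a, Ly6c1 and Ly6c2 along those gates describe the sorts. Stromal markers were present in each library, with Dcn or Col1a1 the most abundant of 10, and their summed level over the sorted libraries ranged from 7926 RPKM in cluster 2 to 25002 RPKM in cluster 6. Col1a1 made up 63.8% of the sum in cluster 6. Without Col1a1 the other 9 genes summed to 9050 RPKM in cluster 6, and ranged from 4491 RPKM in cluster 2 to 13905 RPKM in cluster 3. Of the 10 genes, 2 were highest and 4 were lowest in cluster 6. RPKM is the number of reads scaled to exon length and to the total count of the library, and its 95% interval here covers counting error only. The total count was 24205863 reads in cluster 1, 25349917 reads in cluster 2, 27102715 reads in cluster 3, 32549319 reads in cluster 4, 12833648 reads in cluster 5, 31669132 reads in cluster 6, 33238133 reads in cluster 7 and 20162876 reads in the input. The library of cluster 5 stood apart, since 34.8% of its counts fell on Rn18s-rs5, Lars2 and mmu-mir-689-2, which lowers the RPKM of its other genes. Cluster 2 was next, at 10.4%, which lowers its other RPKM to a lesser degree. In the remaining sorted libraries the share was between 0.274% in cluster 7 and 1.91% in cluster 1. By the total count, cluster 5 was neither the highest nor the lowest sorted library for any of the 6 Ly6 genes above RPKM 2, so the extremes given below were the same without it.

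The 7 genes lie on chromosome 15 of GRCm38 between 74762056 and 75159126, in a stretch of 397 kb with 24 counted genes. Near-identical copies stand side by side there, and the sequences just upstream of 4 neighbouring genes are given as a description. Any link of these sequences to the levels below was not tested. Promoter entries of RefSeq GRCm38.p6 were found for 4 genes, namely Ly6c1, Ly6c2, Ly6g and the neighbour Ly6a2, and were trimmed to the bases upstream of the gene. No entry was found for Ly6a, Ly6e, Ly6d or Ly6k. Capitals mark the longest run of bases that a sequence shares exactly with the most similar of the other 3. The windows are chr15:75048921-75049087 on the minus strand for Ly6c1, chr15:75112067-75112221 on the minus strand for Ly6c2, chr15:75155011-75155239 on the plus strand for Ly6g and chr15:75135129-75135378 on the minus strand for Ly6a2.
Ly6c1: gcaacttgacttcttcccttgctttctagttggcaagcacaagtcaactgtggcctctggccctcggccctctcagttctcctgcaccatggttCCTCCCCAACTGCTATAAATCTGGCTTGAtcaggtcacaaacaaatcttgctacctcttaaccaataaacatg
Ly6g: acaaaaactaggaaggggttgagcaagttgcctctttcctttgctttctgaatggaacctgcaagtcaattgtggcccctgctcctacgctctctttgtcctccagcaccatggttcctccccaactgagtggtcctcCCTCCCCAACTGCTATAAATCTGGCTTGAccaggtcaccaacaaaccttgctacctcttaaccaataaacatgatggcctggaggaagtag
Ly6c2: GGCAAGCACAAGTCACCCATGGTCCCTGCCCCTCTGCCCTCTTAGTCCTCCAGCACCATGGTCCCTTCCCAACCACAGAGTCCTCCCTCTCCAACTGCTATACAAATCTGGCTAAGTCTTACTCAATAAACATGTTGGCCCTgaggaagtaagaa
Ly6a2: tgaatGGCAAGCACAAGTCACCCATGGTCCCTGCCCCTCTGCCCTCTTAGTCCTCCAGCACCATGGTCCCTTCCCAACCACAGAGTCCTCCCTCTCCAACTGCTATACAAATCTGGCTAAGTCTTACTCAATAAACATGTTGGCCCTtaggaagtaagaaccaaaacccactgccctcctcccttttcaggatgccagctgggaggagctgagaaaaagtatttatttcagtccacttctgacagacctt
The windows of Ly6c2 and Ly6a2 were identical at 154 of 155 aligned positions (99.4%), with a shared run of 142 bases. The window of Ly6c1 was most similar to that of Ly6g, at 74.1% of 189 aligned positions with a shared run of 29 bases, and was identical to that of Ly6c2 at 72.8% of 136 positions.

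Of the 7 genes, 6 exceeded RPKM 2 in each of the 7 sorted libraries and in the input, and Ly6k stayed below it everywhere. Among the 49315 counted genes, 12360 exceeded RPKM 2 in at least 1 sorted library, a looser condition than in each of the 7. The 6 genes fell into different orders over the sorted populations. Ly6a and Ly6c1 were highest in cluster 3 and lowest in cluster 6, whereas Ly6c2, Ly6g and Ly6d were highest in cluster 7 and lowest in cluster 3 by the total count, with the exceptions under TMM factors given below for Ly6c2 and Ly6d. Of all 12360 genes above RPKM 2 in a sorted library, 9.85% were highest in cluster 3, 25.3% were highest in cluster 7, 8.11% were lowest in cluster 3 and 25.5% were lowest in cluster 6. Among the 6 Ly6 genes, 2 were highest in cluster 3, 4 were highest in cluster 7, 3 were lowest in cluster 3 and 3 were lowest in cluster 6. After scaling by the TMM factors of edgeR instead, Ly6d was highest in cluster 5, the lowest level of Ly6c2 was for cluster 1, and the lowest level of Ly6e was for cluster 2. Of the 6 Ly6 genes, 2 were then highest in cluster 3 and 3 in cluster 7, against 10.1% and 17.1% of 12682 genes. In turn, 2 were lowest in cluster 3 and 2 in cluster 6, against 12.1% and 17%.

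**Figure D1:**
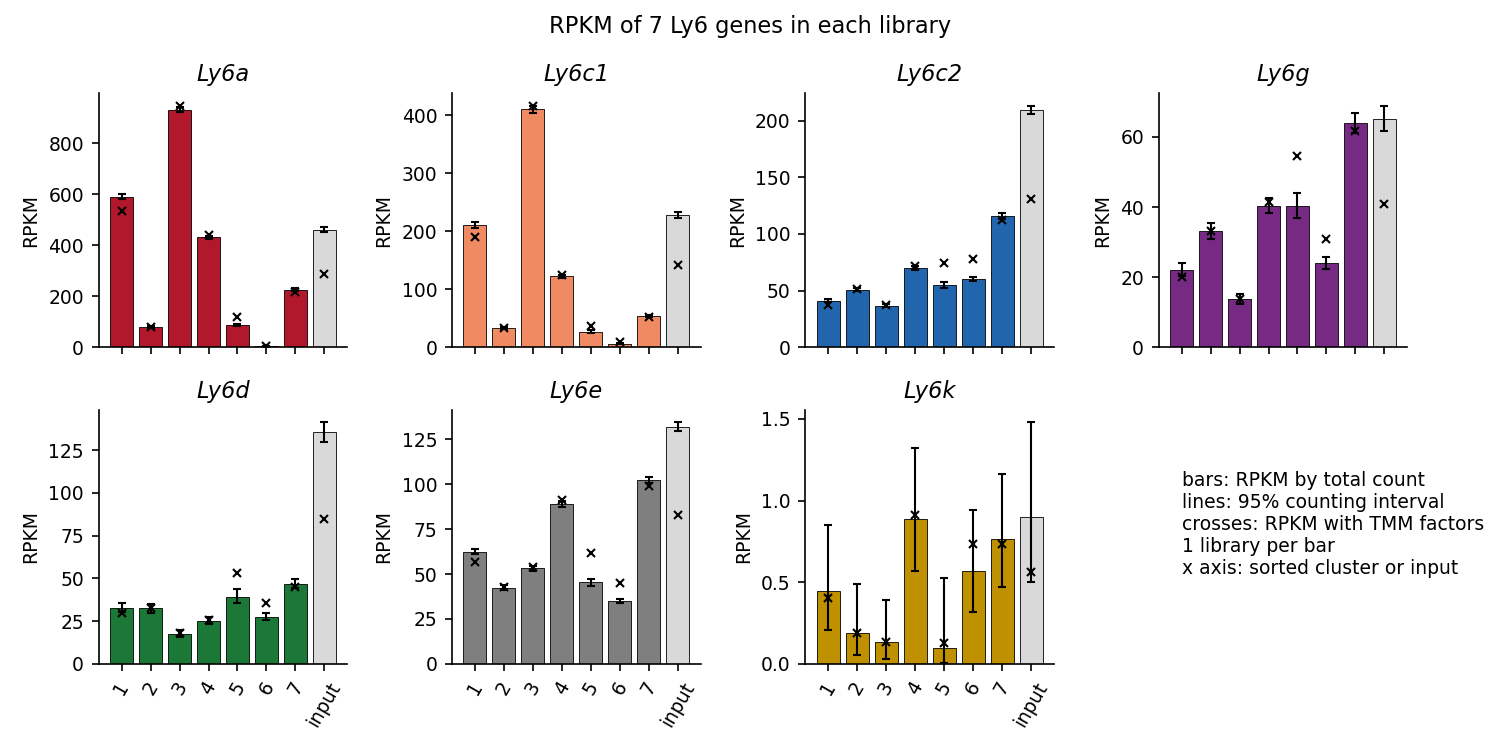
RPKM (y axis, linear, own scale per gene) of each of the 7 Ly6 genes in the 7 sorted libraries and the input (x axis), with 1 library per bar. Lines are 95% counting intervals and crosses are values with TMM factors. Ly6a and Ly6c1 peak in cluster 3 and are near 0 in cluster 6, whereas Ly6c2 and Ly6g are highest in cluster 7 among the sorted libraries, and Ly6k does not reach RPKM 1.

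Ly6a, the gene of Sca-1 (ENSMUSG00000075602, 74994877 to 74998031, minus strand), had the widest range of the 7 genes. Its level was 931 RPKM in cluster 3, 589.8 RPKM in cluster 1, 431 RPKM in cluster 4, 226 RPKM in cluster 7, 87.0 RPKM in cluster 5, 78.3 RPKM in cluster 2 and 4.98 RPKM in cluster 6, and 461 RPKM in the input. It thus ranked 43 among all counted genes of cluster 3, 73 in cluster 1 and 5634 in cluster 6. No counting intervals of neighbours in this order overlapped, and the order was the same with TMM factors. The highest level was 187 times the lowest (95% counting interval 162 to 217), and 148 times with TMM factors. No Sca-1 gate was read from the sort plots for cluster 3, where Ly6a was highest, or for cluster 4, where it was higher than in cluster 7, which was gated as Sca-1+. Cluster 3 exceeded the Sca-1+ cluster 1 by 1.58-fold (1.55 to 1.61) and the Sca-1+ cluster 7 by 4.12-fold (4.03 to 4.22). The level in cluster 7 was 0.524 of that in cluster 4 (0.511 to 0.538). Along the Sca-1 gate itself, 2 of 2 pairs were ordered as sorted, with log2 ratios of RPKM + 1 of 6.63 for cluster 1 and 5.25 for cluster 7 against the Sca-1- cluster 6.

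Ly6c1 (ENSMUSG00000079018, 75044018 to 75048830, minus strand), a gene of the Ly-6C antigen, was ordered like Ly6a apart from clusters 2 and 5, which took the order of Ly6a with TMM factors. Its level was 409.9 RPKM in cluster 3, 211 RPKM in cluster 1, 122 RPKM in cluster 4, 53.7 RPKM in cluster 7, 32.9 RPKM in cluster 2, 27.1 RPKM in cluster 5 and 6.44 RPKM in cluster 6, and 227 RPKM in the input. The highest level was 63.7 times the lowest (57.2 to 71.0), and no neighbours in the order had overlapping counting intervals. Ly6a exceeded Ly6c1 per length in 6 of the 7 sorted libraries, by 2.27-fold in cluster 3 to 4.20-fold in cluster 7, and was below it in cluster 6 with a ratio of 0.773 (0.644 to 0.926). Pearson's r of log2(RPKM + 1) between both genes was 0.965 over the 7 sorted libraries, and between 0.961 and 0.976 with each library left out in turn. These libraries share the preparation and differ in depth, and r is given as a description.

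In the comparisons along the gates, a gene was counted as higher where RPKM + 1 differed by more than 2-fold. Cluster 1 exceeded cluster 6 in 2 of the 6 genes, Ly6a and Ly6c1, compared with 21.5% of the 11094 genes compared. With TMM factors it did so in the same 2 genes, compared with 11.4% of 11232 genes. These populations were gated apart by Sca-1 as well as by CD24 and CD39, so nothing is read from the count for Ly6a. Cluster 7 exceeded cluster 6 in 4 genes, Ly6a, Ly6c1, Ly6e and Ly6g, compared with 14.4% of all genes, and with TMM factors in 3, without Ly6g, compared with 7.84%. Clusters 7 and 6 were also gated apart by Sca-1, so nothing is read from this count for Ly6a either. Cluster 6 exceeded cluster 1 in 0 of the 6 genes by the total count, against 5.82% of all genes. With TMM factors it did so in 1, Ly6c2, compared with 11% of all genes.

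The pattern of Ly6a and Ly6c1 was set beside markers of adventitial fibroblasts, the stromal cells around vessels in which Sca-1 is known to be abundant. The summed level of 8 such genes was 798 RPKM in cluster 1, 793 RPKM in cluster 3, 445 RPKM in cluster 4, 307 RPKM in cluster 7, 77.6 RPKM in cluster 5, 77.0 RPKM in cluster 2 and 13.3 RPKM in cluster 6, and 458 RPKM in the input. By the total count the sum had the order of Ly6a except for clusters 1 and 3, and with TMM factors, at 806 RPKM for cluster 3 and 722 RPKM for cluster 1, it had the order of Ly6a. Without Mfap5, the most abundant over the sorted libraries, the other 7 genes summed to 610.4 RPKM for cluster 3 and 532 RPKM for cluster 1, and clusters 2 and 5 changed places, at 62.0 and 51.4 RPKM (62.3 and 69.5 RPKM with TMM factors). Single genes did not all share the order of the sum. Of the 8 genes, 4 were highest in cluster 3 and 4 in cluster 1 (5 and 3 with TMM factors), and 6 were lowest in cluster 6 and 2 in cluster 5 (7 and 1 with TMM factors). Pi16, a secreted protein of these fibroblasts, was at 29.99 RPKM for cluster 1, 22.9 RPKM for cluster 4, 11.0 RPKM for cluster 7 and 9.85 RPKM for cluster 3. Dpp4, a surface peptidase, was at 1.08 RPKM for cluster 4, against 4.88 RPKM for cluster 7 and 1.68 RPKM for cluster 6. Cd55, a complement regulator, was at 6.47 RPKM for cluster 4 and 16.8 RPKM for cluster 7. Its most abundant gene was Mfap5, a microfibril protein, in clusters 1, 4, 5 and 7 and the input, and Clec3b, which encodes tetranectin, in clusters 2 and 3. In cluster 6 it was Sema3c, a guidance factor. Between 7 and 8 of its 8 genes exceeded RPKM 2 in each library except cluster 6, where 2 did, and none was at 0 counts in any library. Endothelial cells also carry Sca-1 and Ly-6C, and these sorts gated on cells negative for CD31, encoded by Pecam1. How far that gate removed endothelial cells was not tested. The summed level of 10 endothelial markers was between 4.43 RPKM in cluster 6 and 22.7 RPKM in cluster 1, with 18.6 RPKM in cluster 3, whereas with TMM factors it was highest in cluster 5, at 28.0 RPKM, and 20.5 RPKM in cluster 1. Of the 10 genes, 4 were highest in cluster 1 and 4 in cluster 5 (1 and 8 with TMM factors). Their most abundant gene was Esam or Pecam1, and Cdh5, the endothelial cadherin, was at 1.37 RPKM in cluster 3 and 2.48 RPKM in cluster 5. Osteoblast markers did not follow Ly6a, since the summed level of 8 of them was 25981 RPKM in cluster 3 and 25503 RPKM in cluster 6, the highest and the lowest library for Ly6a. In these pooled cells, fewer cells of a type and less RNA per cell cannot be told apart, and the part of adventitial or endothelial cells in the levels of Ly6a and Ly6c1 was not tested.

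Ly6c2 (ENSMUSG00000022584, 75108158 to 75111970, minus strand), the other gene of the Ly-6C antigen, did not follow Ly6c1. Its level was 115.8 RPKM in cluster 7, 69.6 RPKM in cluster 4, 60.1 RPKM in cluster 6, 54.9 RPKM in cluster 5, 51.0 RPKM in cluster 2, 41.2 RPKM in cluster 1 and 36.9 RPKM in cluster 3, and 209 RPKM in the input. It was lowest in the population sorted as Ly-6C+ and highest in a population sorted as Ly-6C-, although with TMM factors cluster 1, at 37.3 RPKM, was just below cluster 3, at 37.5 RPKM. The highest sorted level was 3.14 times the lowest, and clusters 5 and 2 had overlapping counting intervals. Pearson's r between Ly6c1 and Ly6c2 was -0.39 over the 7 libraries, and ranged from -0.61 without cluster 7 to -0.11 without cluster 3. With TMM factors r was -0.62 over the 7 libraries.

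The ratio of Ly6c1 to Ly6c2 within a library is independent of the library's scaling. Per length it was 11.1 for cluster 3 (10.7 to 11.6), 5.12 for cluster 1 (4.91 to 5.35), 1.75 for cluster 4 (1.69 to 1.82), 0.646 for cluster 2 (0.606 to 0.687), 0.494 for cluster 5 (0.450 to 0.543), 0.464 for cluster 7 (0.445 to 0.483) and 0.107 for cluster 6 (0.0957 to 0.120). In the input it was 1.09 (1.05 to 1.12). The ratio thus spanned 104-fold over the sorted libraries, and Ly6c1 was above Ly6c2 in clusters 1, 3 and 4 by the deposited exon lengths of 1677 and 2740 bases. The longest annotated transcripts of both genes, in contrast, have 840 and 796 bases, and by these lengths each ratio is multiplied by 0.580, which leaves the span and the order of the libraries as they were. The ratio was then 6.45 for cluster 3 (6.20 to 6.72), 2.97 for cluster 1 (2.85 to 3.10), 1.02 for cluster 4 (0.983 to 1.05) and 0.630 for the input (0.612 to 0.648). In cluster 4, Ly6c1 was thus above Ly6c2 beyond counting error only by exon length. Which gene was the more abundant in the input depends on the length used. The Ly-6C gate of the study set cluster 3 apart from clusters 2, 4, 5 and 7, and the antigen can come from either gene. Ly6c1 was ordered as gated in 4 of 4 pairs, Ly6c2 in 0 of 4 and the sum of both in 4 of 4, with the total count as with TMM factors. The summed level was 447 RPKM in cluster 3 and at most 192 RPKM in the Ly-6C- populations, in cluster 4, a log2 ratio of RPKM + 1 of 1.22 (1.19 to 1.25). By transcript length the highest Ly-6C- population was cluster 7 and the log2 ratio was 0.90.

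**Figure D2:**
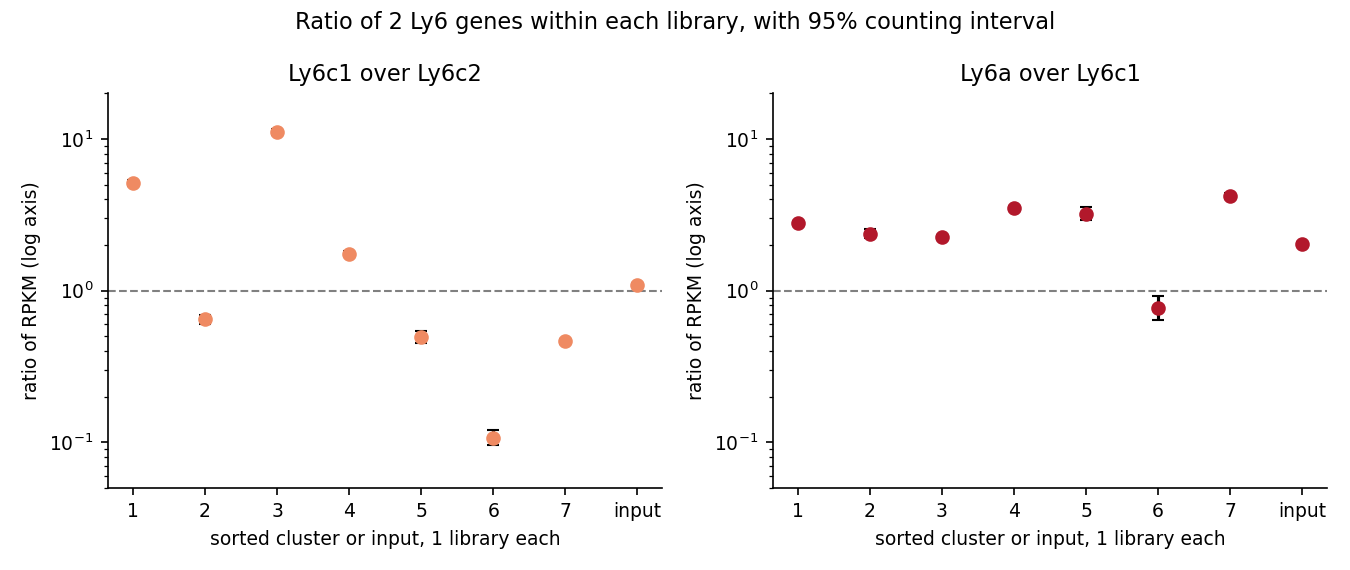
Ratio of RPKM by exon length (y axis, log) of Ly6c1 to Ly6c2 and of Ly6a to Ly6c1 within each of the 7 sorted libraries and the input (x axis), 1 library per point with its 95% counting interval; the dashed line is a ratio of 1. The first ratio runs from 0.107 in cluster 6 to 11.1 in cluster 3, and the second stays between 0.773 and 4.20.

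Reads can be shared between these genes. The longest annotated transcripts of Ly6c1 and Ly6c2 in the NCBIM37 annotation were identical at 97.7% of 796 aligned bases, whereas Ly6a was identical to Ly6c1 at 82.7% of its aligned bases, to Ly6c2 at 82.8% and to Ly6e at 50.6%. Of all windows of 150 bases, 5.64% of those of Ly6c1 and 6.03% of those of Ly6c2 occurred in the other gene. For windows of 100 bases these shares were 15.4% and 16.4%. At both lengths 0 windows of Ly6a, Ly6e, Ly6d, Ly6g and Ly6k occurred in protein-coding transcripts of another gene in the NCBIM37 annotation. For windows of 50 bases the shares of Ly6c1 and Ly6c2 were 31.9% and, counting those shared with Ly6a, 34.1%. Of the windows of Ly6a and Ly6g, 4.42% and 0.697% were then shared, mostly with Ly6i. Windows of Ly6a2 were not counted, and reads that Ly6c2 and Ly6a2 may share were not examined. How the counting treated reads that match both genes is not given in the sources used here, so the levels of Ly6c1 and Ly6c2 are uncertain by the reads they share.

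Ly6g (ENSMUSG00000022582, 75155240 to 75159126, plus strand), the gene of the neutrophil antigen, was measured in each sorted population. Its level was 63.9 RPKM in cluster 7, 40.4 RPKM in cluster 4, 40.4 RPKM in cluster 5, 33.1 RPKM in cluster 2, 23.9 RPKM in cluster 6, 22.1 RPKM in cluster 1 and 13.6 RPKM in cluster 3, and 65.2 RPKM in the input. The counting intervals of clusters 4 and 5 and those of clusters 6 and 1 overlapped. The highest level was 4.69 times the lowest. The ratio of Ly6c2 to Ly6g stayed between 1.36 and 2.70 over the sorted libraries, compared with a span of 104-fold for the ratio of Ly6c1 to Ly6c2, and Pearson's r of Ly6c2 and Ly6g was 0.881 (0.800 to 0.923 with each library left out in turn).

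Ly6d (ENSMUSG00000034634, 74762056 to 74763620, minus strand), known from lymphoid progenitors, was highest in the input. Its level was 46.7 RPKM in cluster 7, 39.4 RPKM in cluster 5, 32.8 RPKM in cluster 1, 32.4 RPKM in cluster 2, 27.5 RPKM in cluster 6, 25.3 RPKM in cluster 4 and 17.6 RPKM in cluster 3, and 135 RPKM in the input. Of the 6 neighbouring pairs in this order, 3 had overlapping counting intervals, those of clusters 5 and 1, 1 and 2, and 6 and 4. Cluster 3, the lowest for Ly6d as for Ly6g, stood below each of the other 6 libraries beyond counting error.

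Cluster 7 exceeded cluster 3 by more than 2-fold in RPKM + 1 in 3 of the 6 genes, Ly6c2, Ly6d and Ly6g, compared with 9.88% of the 10865 genes compared, and cluster 3 exceeded cluster 7 in 2, Ly6a and Ly6c1, compared with 5.25%. The log2 ratios of cluster 7 to cluster 3 were 2.15 for Ly6g, 1.63 for Ly6c2 and 1.36 for Ly6d, and -2.04 for Ly6a and -2.91 for Ly6c1. Cluster 3 exceeded clusters 2, 4 and 5 in the same 2 genes, Ly6a and Ly6c1, compared with 8.11%, 4.57% and 19.6% of all genes. The last share was 8.21% with TMM factors, which called the same 2 Ly6 genes. Cluster 3 was gated as Ly-6C+ and clusters 2, 4, 5 and 7 as Ly-6C-, so nothing is read from these counts for Ly6c1. In the reverse direction, cluster 2 exceeded cluster 3 in Ly6g, compared with 9.64% of all genes, cluster 4 in Ly6g, compared with 7.26%, and cluster 5 in Ly6d and Ly6g, compared with 5.53%, or 9.41% with TMM factors.

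Markers of blood cells were present in the sorted libraries although CD45+ cells had been gated out. Among these lists, the sums for monocytes and macrophages and for neutrophils were ordered much like Ly6c2 and Ly6g by the total count, and the others less so. The sums for the B lineage and for T and NK cells were also highest in cluster 7 and lowest in cluster 3 of the sorted libraries, with either scaling. The summed level of 10 monocyte and macrophage markers was 4383 RPKM in cluster 7, 2187 RPKM in cluster 4, 1707 RPKM in cluster 6, 1380 RPKM in cluster 5, 1072 RPKM in cluster 2, 974.6 RPKM in cluster 1 and 601 RPKM in cluster 3, which is the order of Ly6c2 by the total count, and 6429 RPKM in the input. With TMM factors the list kept this order, and Ly6c2 had 77.5 RPKM in cluster 6, 74.2 RPKM in cluster 5 and 71.3 RPKM in cluster 4. Lyz2, the lysozyme gene shared by monocytes and neutrophils, made up between 85.0% and 89.5% of the sum in each library, so the order of the sum is mostly that of Lyz2. The other 9 genes summed to 644.7 RPKM for cluster 7, 327 RPKM for cluster 4, 240.4 RPKM for cluster 6, 164 RPKM for cluster 5, 146 RPKM for cluster 1, 135 RPKM for cluster 2 and 71.7 RPKM for cluster 3, in which clusters 1 and 2 changed places (132 and 135 RPKM with TMM factors). Of the 10 genes, 9 were highest in cluster 7 (7 with TMM factors) and 6 were lowest in cluster 3, and C1qb and C1qc, complement genes of macrophages, were lowest in cluster 4, and Adgre1, the gene of F4/80, and Csf1r, the receptor for M-CSF, in cluster 2. Csf1r ranged from 1.81 RPKM in cluster 2 to 15.05 RPKM in cluster 7, with 2.14 RPKM in cluster 5 and 2.49 RPKM in cluster 3. In cluster 4, which was second for the sum, 4 of the 10 genes exceeded RPKM 2, as in cluster 3, against 7 in clusters 1 and 6 and 9 in cluster 7, and none was at 0 counts.
The summed level of 10 neutrophil markers was 30838 RPKM in cluster 7, 27442 RPKM in cluster 5, 18355 RPKM in cluster 4, 17064 RPKM in cluster 2, 15857 RPKM in cluster 6, 15213 RPKM in cluster 1 and 11339 RPKM in cluster 3, and 44903 RPKM in the input. This is the order of Ly6g by the total count except for clusters 4 and 5, and with TMM factors the list was highest in cluster 5, at 37100 RPKM, and Ly6g in cluster 7. Without S100a9 the other 9 genes summed to 10719 RPKM for cluster 6 and 10105 RPKM for cluster 2, which then also changed places. Of the 10 genes, 6 were highest in cluster 7 and 4 in cluster 5. S100a9, a calcium-binding protein of neutrophils, was the most abundant of them in each library. In each library 9 or 10 of the 10 genes exceeded RPKM 2 and none was at 0 counts. The 10 B lineage markers summed to 146 RPKM in cluster 7, 127 RPKM in cluster 2, 108 RPKM in cluster 6, 104 RPKM in cluster 1, 86.7 RPKM in cluster 4, 79.3 RPKM in cluster 5 and 57.2 RPKM in cluster 3, and 325 RPKM in the input. Their sum shared with Ly6d the highest and the lowest sorted library, but was second lowest in cluster 5, where Ly6d was second highest. With TMM factors Ly6d was highest in cluster 5, at 53.2 RPKM, where the list was at 107 RPKM, and the list was highest in cluster 7, at 141 RPKM, next to 139.7 RPKM in cluster 6. Of the 10 genes, 5 were highest in cluster 7, 4 in cluster 2 and 1 in cluster 1, and 8 were lowest in cluster 3, while with TMM factors 3 each were highest in clusters 7, 2 and 6 and 1 in cluster 3. Their most abundant gene was Cd79a, Cd79b or Vpreb3. Between 6 and 8 of them exceeded RPKM 2 in a library and none was at 0 counts. Erythroid markers followed none of the 3 genes, since their summed level was 7337 RPKM in cluster 3 and 7417 RPKM in cluster 7, against 68535 RPKM in cluster 5. The part of these cells in the levels of Ly6c2, Ly6g and Ly6d was not tested.

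**Figure D3:**
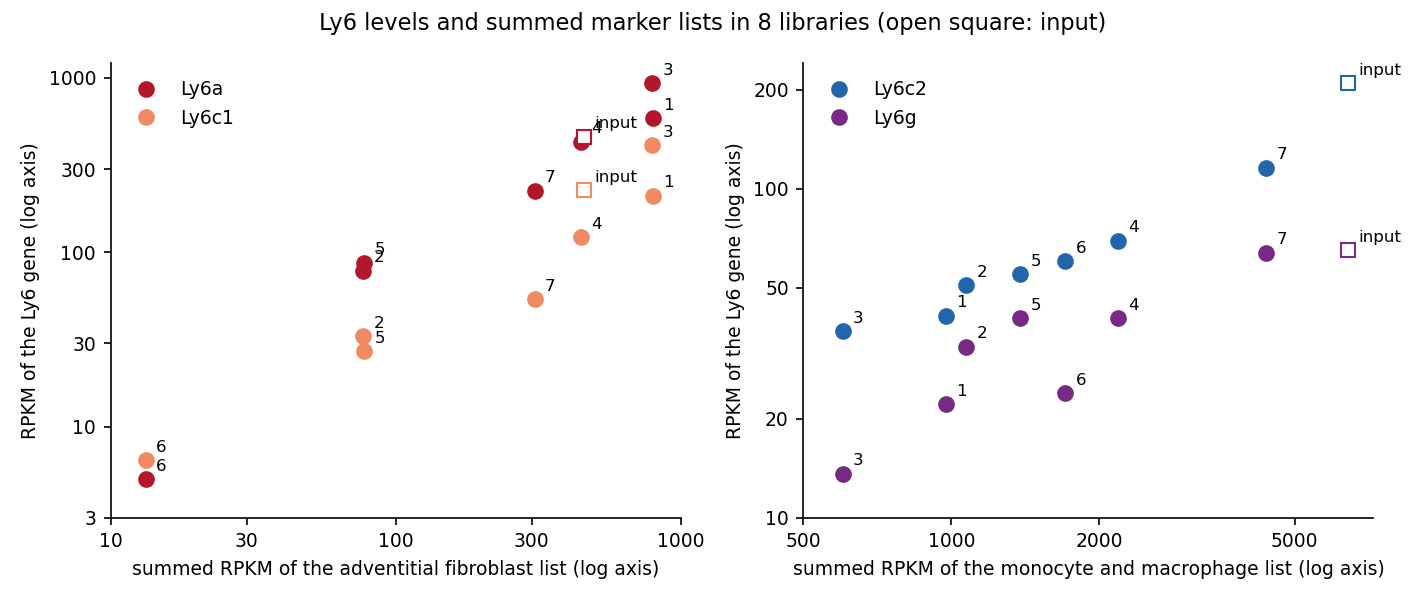
RPKM of Ly6a and Ly6c1 (left, y axis, log) against the summed RPKM of 8 adventitial fibroblast markers (x axis, log), and of Ly6c2 and Ly6g (right) against that of 10 monocyte and macrophage markers, mostly Lyz2, in the 7 sorted libraries (filled, with their cluster number) and the input (open squares). Ly6a and Ly6c1 are lowest in cluster 6, at 13.3 RPKM of the first list, and Ly6c2 and Ly6g are lowest in cluster 3, at 601 RPKM of the second, by the total count (with TMM factors Ly6c2 is lowest in cluster 1).

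Ly6e (ENSMUSG00000022587, 74955051 to 74959905, plus strand), the interferon-induced gene, had its highest sorted levels in clusters 7 and 4. Its level was 102 RPKM in cluster 7, 88.8 RPKM in cluster 4, 62.5 RPKM in cluster 1, 53.3 RPKM in cluster 3, 45.4 RPKM in cluster 5, 42.4 RPKM in cluster 2 and 34.9 RPKM in cluster 6, and 132 RPKM in the input. The highest sorted level was 2.93 times the lowest, against 2.66 times for Ly6d, and with TMM factors these were 2.32 times and 2.98 times. The intervals of clusters 5 and 2 overlapped. The summed level of 15 interferon-stimulated genes was 290.2 RPKM in cluster 1, 286 RPKM in cluster 7, 255 RPKM in cluster 4, 147 RPKM in cluster 5, 145 RPKM in cluster 3, 116 RPKM in cluster 2 and 66.4 RPKM in cluster 6, and 227 RPKM in the input. Clusters 1, 4 and 7 were thus the upper 3 for Ly6e and for this sum, and cluster 6 was the lowest for both by the total count. Irf1, a transcription factor induced by interferon, made up 47.4% of the sum in cluster 1 and 48.6% in cluster 7. Without it the other 14 genes summed to 155 RPKM for cluster 4, 153 RPKM for cluster 1, 147 RPKM for cluster 7, 113 RPKM for cluster 5 and 39.0 RPKM for cluster 6, whereas with TMM factors cluster 5, at 153 RPKM, was above clusters 1 and 7, at 138 and 142 RPKM. Of the 15 genes, 6 were highest in cluster 7, 4 in cluster 1, 2 each in clusters 4 and 5 and 1, Ifit3, in cluster 6. In cluster 6, 10 of the 15 were lowest (9 with TMM factors). With TMM factors Ly6e was at 61.4 RPKM in cluster 5 and 56.6 RPKM in cluster 1, and at 45.0 RPKM in cluster 6 and 42.6 RPKM in cluster 2, so that cluster 5 moved above cluster 1 and cluster 2 became the lowest. The most abundant gene of the list was Irf1 in each library but cluster 5, where it was Isg15. Between 8 and 13 of the 15 exceeded RPKM 2 in a library, and none was at 0 counts.

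Ly6k (ENSMUSG00000044678, 74796874 to 74799986, minus strand), known from testis, had between 1 and 24 counts per library. Its level was 0.889 RPKM in cluster 4 (0.570 to 1.32), 0.762 RPKM in cluster 7, 0.571 RPKM in cluster 6, 0.449 RPKM in cluster 1, 0.190 RPKM in cluster 2, 0.134 RPKM in cluster 3 and 0.0940 RPKM in cluster 5, and 0.897 RPKM in the input (0.502 to 1.48). The intervals of each of the 6 neighbouring pairs in the order of the sorted libraries overlapped. Ly6k overlaps Gm17189 on the other strand, and whether the counting used strand is not given in the sources used here.

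Among the 12360 genes above RPKM 2 in a sorted library, 70.6% had more than 2-fold between the highest and lowest sorted RPKM + 1, as had 6 of the 6 Ly6 genes. More than 10-fold was found in 3.35% of all genes and in 2 of the 6, Ly6a and Ly6c1. Cluster 6, lowest for both, was gated as Sca-1-, and cluster 3, highest for both, as Ly-6C+, so nothing is read from this count. The input exceeded each of the 7 sorted libraries in 4 of the 6 genes, Ly6c2, Ly6e, Ly6d and Ly6g, compared with 59.8% of the 19088 genes compared, and with TMM factors in 2, Ly6c2 and Ly6d, compared with 29.6%. TMM factors shifted the log2 values by -0.68 in the input, by 0.44 in cluster 5 and by 0.37 in cluster 6.

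Along the locus, Ly6a and Ly6c1 were neighbours among the genes above RPKM 2, whereas the genes highest in cluster 7 by the total count lay on both sides of them. From the start of Ly6a, the starts of Ly6c1, Ly6c2, Ly6a2 and Ly6g lay at 50.8 kb, 114 kb, 137 kb and 157 kb on one side, and those of Ly6e and Ly6d at -43.0 kb and -234 kb on the other. Of the 24 genes, 8 exceeded RPKM 2 in a sorted library, which were 6 of the Ly6 genes above, Ly6a2 and the unnamed gene ENSMUSG00000099775.

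**Figure D4:**
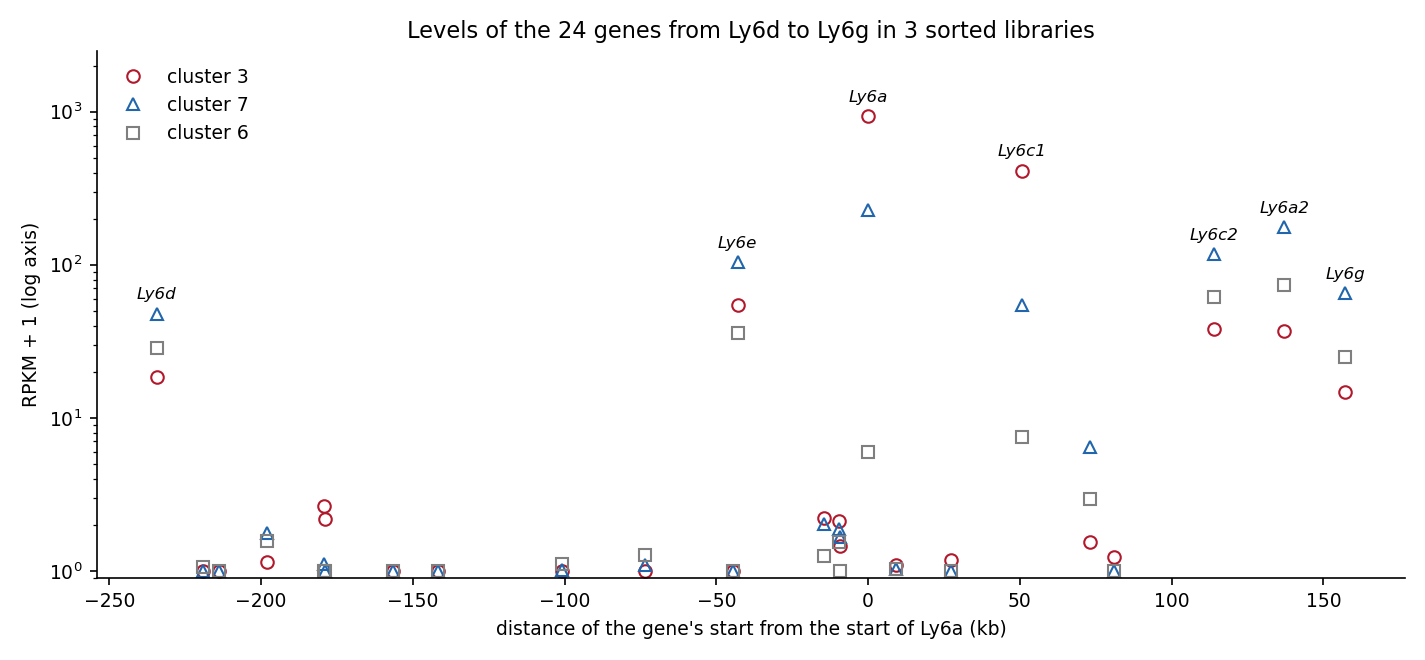
RPKM + 1 (y axis, log) of the 24 genes from Ly6d to Ly6g in clusters 3, 7 and 6, by the distance of each gene's start from that of Ly6a in kb (x axis), 1 library per symbol. Ly6a and Ly6c1 are above the other symbols in cluster 3, whereas Ly6d, Ly6e, Ly6c2, Ly6a2 and Ly6g are highest in cluster 7.

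The other genes of the Ly6/uPAR superfamily were taken from a list of 38 genes, all 38 of which were found among the counted genes. Of these, 9 exceeded RPKM 2 in at least 1 sorted library, compared with 12360 of the 49315 counted genes, 5 of them in each of the 7, and 7 exceeded it in the input only, namely Ly6l, Ly6g5b, Ly6g5c, Ly6g6f, Psca, Lypd10 and Cd59b. Of all counted genes, 13.6% exceeded RPKM 2 in the input only. With TMM factors 3 of the 38 genes did, Ly6l, Ly6g5c and Ly6g6f, compared with 7.27% of all genes. Ly6a2 (ENSMUSG00000102051), whose upstream sequence nearly equals that of Ly6c2, was at 174 RPKM in cluster 7, 91.1 RPKM in cluster 4, 88.0 RPKM in cluster 5, 72.8 RPKM in cluster 6, 65.3 RPKM in cluster 2, 44.5 RPKM in cluster 1 and 35.6 RPKM in cluster 3, and 224 RPKM in the input. Like Ly6c2 it was thus highest in cluster 7 and lowest in cluster 3, with Pearson's r of 0.972 to Ly6c2 (0.943 to 0.995 with each library left out in turn) and a ratio of Ly6c2 to Ly6a2 between 0.624 and 1.03. Reads that Ly6c2 and Ly6a2 may share were not examined. For Ly6c1 and Ly6g, whose upstream windows were each most similar to the other, r was -0.38 (-0.56 with TMM factors). The ratio of Ly6a to Ly6a2, in turn, ranged from 0.0683 in cluster 6 to 26.1 in cluster 3.
Cd177, a neutrophil surface protein, was at 229 RPKM in cluster 7, 99.9 RPKM in cluster 6, 74.5 RPKM in cluster 4, 38.1 RPKM in cluster 5, 22.7 RPKM in cluster 2, 19.8 RPKM in cluster 3 and 15.1 RPKM in cluster 1, and 176 RPKM in the input. Plaur, the urokinase receptor of myeloid and other migrating cells, ranged from 74.9 RPKM in cluster 1 to 247 RPKM in cluster 7, next to 244 RPKM in the input. Both were thus highest in cluster 7 of the sorted libraries, as were Ly6c2 and Ly6g. Lynx1, which binds nicotinic receptors, was at 8.99 RPKM for cluster 1 and 7.26 RPKM for cluster 3, and lowest in cluster 6 at 2.12 RPKM, the libraries in which Ly6a was also high and low. Slurp1, a secreted relative, was at 27.7 RPKM in cluster 3 and between 1.65 and 10.8 RPKM in the other 6 libraries. Cd59a, which blocks the end of the complement cascade, ranged from 6.20 RPKM in cluster 1 to 16.5 RPKM in cluster 3, although with TMM factors its level was 19.4 RPKM in cluster 6 and 16.7 RPKM in cluster 3. Gpihbp1, the capillary anchor of lipoprotein lipase, reached 2.65 RPKM in cluster 5, Lypd3 reached 3.61 RPKM in cluster 2 and Lypd8 reached 2.41 RPKM in cluster 1.

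Genes with the most similar pattern were ranked by Pearson's r of log2(RPKM + 1) over the 7 sorted libraries among 10956 named genes with RPKM above 2 and at least 50 counts. The values of r are descriptions, and Ly6c1 ranked 25 among these genes by its likeness to Ly6a. For Ly6a these were Ccl7, a chemokine for monocytes (r of 0.998), Clec3b (0.988), Smurf2, a ubiquitin ligase of the TGF-beta pathway, Nov, a matricellular protein, and Spink2. Ccl7 was at 1092 RPKM in cluster 3, 625 RPKM in cluster 1, 447 RPKM in cluster 4, 273 RPKM in cluster 7, 91.8 RPKM in cluster 5, 72.9 RPKM in cluster 2 and 6.78 RPKM in cluster 6, in the order of Ly6a. For Ly6c1 they were Daxx (0.992), the fibrillin gene Fbn1, the growth factor gene Fgf16, the transcription factor gene Ebf1 and Serpinb6a.
For Ly6c2 they were Plbd1 (0.987), Lyz2 (0.986), Cd7, the properdin gene Cfp and Chi3l7, and for Ly6g Pglyrp1 (0.985), an antibacterial granule protein of neutrophils, Gm11714, Gm11428, Gm9733 and Ifitm6. For Ly6d they were AB124611 (0.941), the chemokine genes Ccl4 and Ccl6, the complement gene C1qa and Rgs18. For Ly6e they were H2-T23 (0.992), a non-classical MHC class I gene, Fam174b, Trp53, Actg2 and Musk. With TMM factors 4 of the 5 genes stayed among the 5 most similar for Ly6c1, Ly6e and Ly6g, 3 for Ly6a, without Smurf2 and Nov, and 1 each for Ly6c2 and Ly6d, namely Plbd1 and AB124611. For Ly6c2 the others were then the granule protein gene Ngp, the proteoglycan gene Srgn, Tuba4a and Ly6a2.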

How the data were processed

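The deposited files hold the authors' unnormalized count of reads for each Ensembl gene, its exon positions and its exon length, 1 library for each of 7 sorted populations and 1 for the input. According to the Methods, reads were trimmed and aligned by TopHat2 to mm9 in Partek 2.2, whereas the deposited coordinates are those of GRCm38, since 96.3% of 23315 symbols lay within 10 kb of RefSeq GRCm38.p6. The labels name a TruSeq kit and the Methods only a polyA selection kit, and the amounts of total RNA they state differ. The counting tool and its use of strand and of reads that match several genes are not given in the sources used here.

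RPKM was obtained by dividing the deposited counts by the library total and the exon length, and ratios used RPKM + 1. Symbols were given to 32464 of 49315 genes. Scaling factors came from edgeR 4.0.16 (TMM) and DESeq2 1.42.0, and neither tool's test was used because each population had 1 library. Intervals are exact Poisson intervals for levels and exact binomial intervals for ratios, both at 95%. PCR copies were not separated from molecules, so they cover counting error only. Genes entered a comparison with RPKM above 2 in at least 1 of its libraries.

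The members, gene lists and comparisons were chosen with earlier results of these data known. Genes named are the 7 members, superfamily genes above RPKM 2, the most abundant marker of a list and, per member, the 5 genes with the highest r. Csf1r, Adgre1, Cdh5, Ifit3, Pi16, Dpp4, Cd55, C1qb, C1qc and the input-only superfamily genes were named after their values were seen. The calculation was tested on simulated counts of 49315 genes, where 200 of 200 genes raised 4-fold in cluster 1 over cluster 6 were recovered and 21 unchanged genes of 10725 tested were called. All simulated libraries shared the same mean profile with Poisson counting error, and only genes well above RPKM 2 were raised. Sorts, animals and library composition did not differ there, so these counts check the arithmetic and give no error rate for the real libraries. Sequences were read from RefSeq GRCm38.p6, and the protein-coding transcripts of NCBIM37 were compared only with each other. R 4.3.3, Python 3.11.15, pandas 2.3.3, scipy 1.17.1 and Biopython 1.88 were used.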

Additional observations from a re-analysis of the deposited data

How the results depend on the processing

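Of 114 values recomputed under alternatives, 1 reversed, the log2 ratio of Ly6c1 to Ly6c2 in the input, 0.12 by exon length and -0.67 by transcript length. By transcript length the ratio of both genes left its counting interval in each library. Of 54 other ratios, 32 stayed within the counting interval and 22 left it. Of 16 gene counts, 14 stayed within 1.5 times and 2 did not, and of 35 values of r, 28 stayed within 0.1 and 7 did not. The log2 ratio of Ly6a in cluster 1 to cluster 6, 6.63, was 6.17 with TMM factors over 8 libraries, 6.15 with TMM factors over the 7 sorted libraries, 6.14 with DESeq2 size factors, 6.86 with a pseudocount of 0.1 and 6.89 without one. That of cluster 7 to cluster 6, 5.25, was 4.89, 4.87, 4.83, 5.48 and 5.50 in the same order. The count of 9 superfamily genes was 15 with RPKM above 1 and 37 with at least 1 count, by the construction of these filters. For the summed Ly6c1 and Ly6c2, the log2 ratio of cluster 3 to the highest Ly-6C- population was 0.90 by transcript length in place of 1.22. This log2 ratio moved within its counting interval under the other alternatives run, and 6 of the 7 Ly6 genes passed RPKM 2 under each scaling. Values without the cluster 5 library, values by transcript length, list sums without the most abundant gene, the values of r between pairs of genes with each library left out, and the ratios of cluster 7 to cluster 3 with their alternatives were added after seeing the data. No paired analysis was possible because there was a single library for each population. With 1 library per population, differences between animals, sorts and preparations cannot be told apart from differences between populations.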

Other observations

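The summed level of the 9 erythroid genes measured was between 1596 and 14569 RPKM in the sorted libraries other than cluster 5, and 690.4 RPKM in the input. Hba-a1, a haemoglobin gene, was the most abundant of them in 7 of the 8 libraries. The 8 T and NK cell genes summed to 64.8 RPKM in cluster 7, of which Nkg7 made up 60.9 RPKM, and to 25.7 RPKM in cluster 3, and Cd8a and Cd4 were at 0 counts in cluster 5. The 6 plasma cell genes ranged from 64.2 RPKM in cluster 5 to 149 RPKM in cluster 7 by the total count, and from 86.4 RPKM in cluster 2 to 153 RPKM in cluster 6 over the sorted libraries with TMM factors, with Xbp1 the most abundant in each library. The 6 genes of plasmacytoid dendritic cells ranged from 19.9 RPKM in cluster 6 to 67.5 RPKM in cluster 1, with Bst2 the most abundant. Bst2, also in the interferon list, made up 67.1% of the sum in cluster 1. Without Bst2 the other 5 genes summed to 25.3 RPKM in cluster 7, the highest sorted library, 22.2 RPKM in cluster 1 and 12.4 RPKM in cluster 6. Of the 6 genes, 3 were highest in cluster 7, 2 in cluster 1 and 1 in cluster 2.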
